A study of Caenorhabditis elegans with 9 samples.

Results

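A total of 114 autosomal genes, of 14750 autosomal genes measured, had a higher messenger level in sdc-2(y93)+RNAi embryos and a lower one in smo-1 RNAi embryos, each relative to control. They were chosen by value: the mean of the 3 sdc-2(y93)+RNAi arrays lay at least 0.4 above the mean of the 3 control arrays on the log2 scale, and the mean of the 3 smo-1 RNAi arrays at least 0.4 below it, in the brightest probe set of each gene. A probe set is a group of short probes on the array that reads one transcript. Both differences are therefore given as descriptions.

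The series comprises 9 Affymetrix arrays of XX embryos of the nematode Caenorhabditis elegans at mixed stages, in 3 groups of 3. The control group is the progeny of N2 (wild-type) worms that spent 96 hours on plates with the empty RNAi vector L4440. For smo-1 RNAi embryos, N2 worms had 24 hours of HB101 food and 72 hours of bacteria that make smo-1 double-stranded RNA, which targets the messenger of SUMO, a small protein attached to other proteins. Worms of the sdc-2(y93)+RNAi group carried allele y93 of sdc-2 and followed the same feeding times. Culture was at 20 °C throughout, so both perturbed groups also differ from control in feeding schedule. For the sdc-2(y93)+RNAi group the sample labels name RNAi against sdc-2, while the growth protocol names only a smo-1 plasmid for both RNAi groups. SDC-2 recruits the dosage compensation complex to the X chromosomes of hermaphrodites, where it reduces transcription, and all members described here are autosomal. In whole embryos, fewer cells of a kind or embryos of another age and less RNA per cell cannot be told apart, and the number of arrays limits the precision.

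As background, the first divisions of the C. elegans embryo run on messengers and proteins loaded into the oocyte. Cyclins with their kinases, Polo kinase and centriole and replication factors drive rapid divisions, RNA-binding proteins such as the OMA and MEX families sort cell fates, and maternal messengers are cleared as the zygotic genome is switched on. Transcription factors of the epidermis, muscle, gut and pharynx follow, and division slows as tissues form.

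Some measures of the arrays themselves differed between groups. The spiked-in cre transcript, added before hybridisation, read 12.27 to 12.45 on the sdc-2(y93)+RNAi arrays and 4.64 to 4.78 on the other 6 arrays, so the handling of arrays and this group cannot be told apart. Probe sets at the 3' end of actin, GAPDH, ubiquitin and catalase messengers were compared with those at the 5' end. The log2 ratio of the 2 ends differed from control by 0.81, 0.52, 0.34 and -0.08 in sdc-2(y93)+RNAi and by 0.66, -0.26, 0.32 and 0.86 in smo-1 RNAi embryos, and its part in the results was not tested. The smo-1 messenger was 12.7-fold lower than control in smo-1 RNAi and 2.07-fold lower in sdc-2(y93)+RNAi embryos. In sdc-2(y93)+RNAi embryos her-1, a male-promoting gene repressed by SDC-2, was 5.57-fold higher. The brighter and the dimmer probe set of sdc-2 differed there by -0.35 and -1.38. Of 12 markers of the oocyte and early embryo 10 were above the median level of all genes (6.65), and of 8 markers of differentiating embryos 7 were. All 5 measured vitellogenin genes, made by the adult intestine, and 26 of 27 sperm genes lay at or below that level. The mean level of the oocyte and early embryo markers ran from 9.11 to 9.32 over control arrays, from 9.37 to 9.76 over sdc-2(y93)+RNAi arrays and from 8.53 to 8.77 over smo-1 RNAi arrays, in the same directions as the members, 3 of which (mex-6, oma-1 and nos-2) are among these markers. For the markers of differentiating embryos, which include the member lin-26, these means were 9.62 to 9.63, 9.40 to 9.46 and 9.02 to 9.24.

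The median member was 1.46-fold higher than control in sdc-2(y93)+RNAi embryos and 1.51-fold lower in smo-1 RNAi embryos. On the log2 scale the differences ran from 0.40 to 1.08 with a median of 0.54, and from -1.50 to -0.40 with a median of -0.60. Over all autosomal genes the medians were -0.01 and -0.02, and over the 7166 autosomal genes above the median level -0.18 and -0.24. Members were bright: 108 of 114 lay above the median level of all genes, against 48.6% of autosomal genes, and their median control level was 9.55 against 6.49. Only 4 members were 2-fold or more higher in sdc-2(y93)+RNAi embryos, 13 were 2-fold or more lower in smo-1 RNAi embryos, and cyd-1 alone passed 2-fold both ways. In 93 members all 3 sdc-2(y93)+RNAi arrays lay above and all 3 smo-1 RNAi arrays below every control array, as did 2.2% of autosomal genes. Singly, 99 members had all sdc-2(y93)+RNAi arrays above control (12.1% of autosomal genes) and 108 all smo-1 RNAi arrays below it (31.3%). With limma, 85 members passed an adjusted p of 0.05 in both comparisons in the direction of the rule, against 1.02% of autosomal genes. In single comparisons 90 passed as higher (6.73% of autosomal genes) and 103 as lower (23.8%). The rule used these contrasts, so nothing is read from these counts.

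The combination was the rarest of 4. Past 0.4 in both comparisons, 1584 autosomal genes were lower in both, 408 higher in both, and 163 lower in sdc-2(y93)+RNAi and higher in smo-1 RNAi embryos. The plot of both differences shows the members in the corner of a cloud of autosomal genes; both comparisons share the control arrays. The members just inside the threshold were dhhc-3 (0.753 and -0.403), D2030.8 (0.401 and -0.481) and set-10 (0.401 and -1.114), and those just outside were flh-2 (0.586 and -0.399), sas-6 (0.398 and -0.408) and hrpk-1 (0.394 and -0.438).

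**Figure D1:**
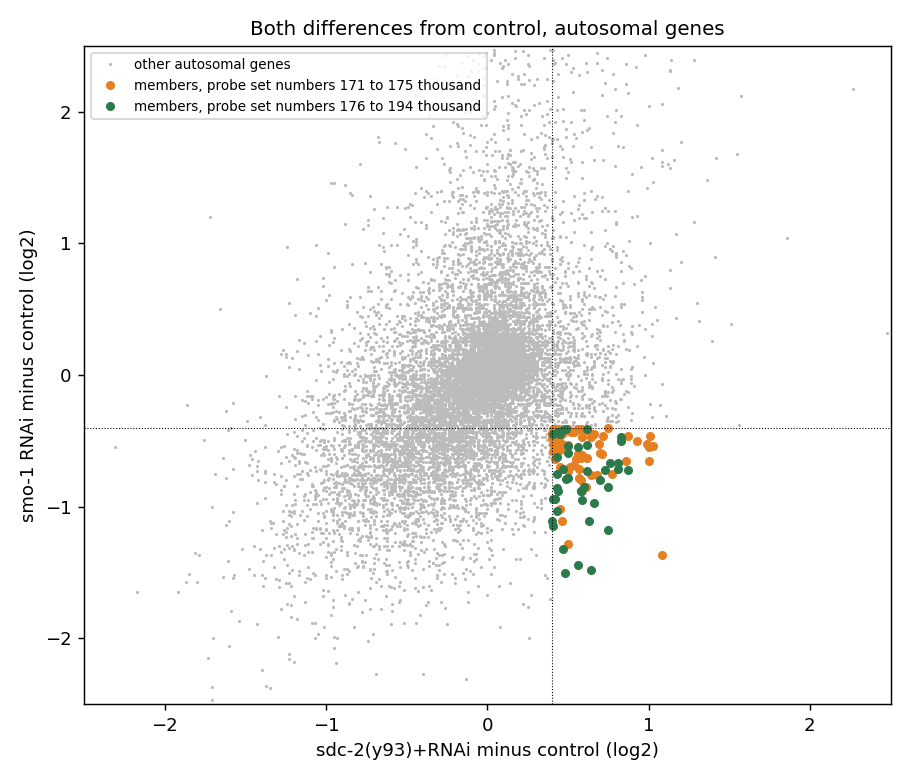
Difference of sdc-2(y93)+RNAi (x axis) and smo-1 RNAi embryos (y axis) from control, in log2 units, 1 point per autosomal gene within 2.5 of 0 (185 genes lie beyond). Coloured points are the 114 members by the number in the probe set name, and dotted lines are the thresholds of 0.4.

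The higher value in sdc-2(y93)+RNAi embryos was mostly absent from the other probe sets of the same genes, while the lower value in smo-1 RNAi embryos was present there. A total of 70 members were read by several probe sets. In the brightest one, which chose them, their medians were 0.51 and -0.53. In the next-brightest one, which the rule did not use, the median was -0.05 in sdc-2(y93)+RNAi and -0.87 in smo-1 RNAi embryos. Of these 70 next-brightest probe sets 5 were past 0.4 and 33 above 0 in sdc-2(y93)+RNAi embryos, whereas 69 were below 0 in smo-1 RNAi embryos and 62 past -0.4. Over the 2415 autosomal genes with several probe sets, 8.45% of next-brightest probe sets were past 0.4 in sdc-2(y93)+RNAi and 36.1% past -0.4 in smo-1 RNAi embryos. Of the same probe sets 37.8% were above 0 in sdc-2(y93)+RNAi and 68.8% below 0 in smo-1 RNAi embryos, with medians of -0.1 and -0.18. Both probe sets lie on the same arrays, so they are not separate samples.

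**Figure D2:**
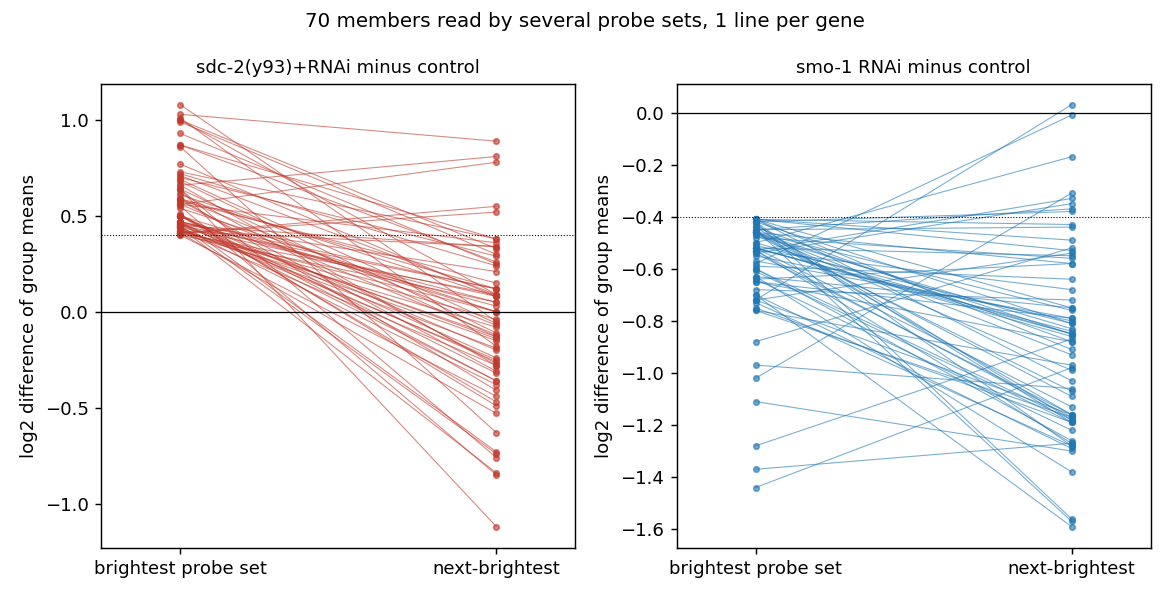
Log2 difference from control in the brightest and the next-brightest probe set of the 70 members with several, 1 line per gene, for sdc-2(y93)+RNAi (left) and smo-1 RNAi (right). Dotted lines mark 0.4 and -0.4; the left lines end around 0 (median -0.05) and the right lines stay below 0 in 69 of 70.

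In 4 of these 70 genes (5.71%) both probe sets met the rule. Of the next-brightest probe sets of all autosomal genes with several, 1.37% met it, and 2.03% of those above the median level. The 4 genes were mex-6 and cyb-2.2, named by rule below, and vet-1 and T19A5.3, singled out for this result. Both probe sets of cyb-2.2 are of a kind that may also detect close relatives. In its brightest probe set T19A5.3 lay near both thresholds (0.41 and -0.41), and its smo-1 RNAi arrays overlapped control. It met the rule in 3 of 9 cases when single arrays were left out. In its next-brightest probe set mex-6, which encodes an RNA-binding protein of the anterior of the early embryo, read 9.0, 8.80 and 9.32 in control, 10.12, 9.53 and 10.13 in sdc-2(y93)+RNAi and 7.84, 7.86 and 7.93 in smo-1 RNAi embryos. The groups did not overlap. The other probe set of vet-1, a very early transcript, read 8.72, 8.55 and 8.67, then 9.30, 9.48 and 9.49, then 7.69, 7.52 and 7.78, again without overlap. By contrast the second probe set of cyd-1, the gene of cyclin D, read 9.15, 8.85 and 8.90 in control and 9.24, 8.90 and 8.61 in sdc-2(y93)+RNAi embryos, which overlapped, and 8.10, 7.81 and 7.18 in smo-1 RNAi embryos. Its difference in sdc-2(y93)+RNAi embryos was 1.08 in one probe set and -0.05 in the other.

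Members gathered in probe sets with low numbers in their names. The manufacturer's probe set names start with a number whose first 3 digits run from 171 to 194. Of the members 71 (62.3%) were read by low numbers, 171 to 175, as were 15.5% of autosomal genes. Autosomal genes above the median level had a median of 0.17 in sdc-2(y93)+RNAi embryos in that class (1786 genes) and of -0.26 in the class of high numbers, 176 to 194 (5380 genes). In smo-1 RNAi embryos these medians were -0.09 and -0.31. Members made up 3.92% of the first class and 0.706% of the second. The gap held at matched brightness: at levels of 9 to 10 the sdc-2(y93)+RNAi medians were 0.18 and -0.30, and at 10 to 11 they were 0.30 and -0.33. The low class was not uniform: probe sets starting with 174 had a median of 0.38 and those starting with 172 a median of -0.27. Within genes the gap was present too. Among 1308 autosomal genes read in both classes above the median level, the low-numbered probe set was higher in its sdc-2(y93)+RNAi difference in 89.7%, with medians of 0.31 and -0.26, and where the high-numbered one was the brighter of the pair (276 genes) still in 80.4%. The classes were formed after the values were seen, and what distinguishes their probes is not given in the sources used here.

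**Figure D3:**
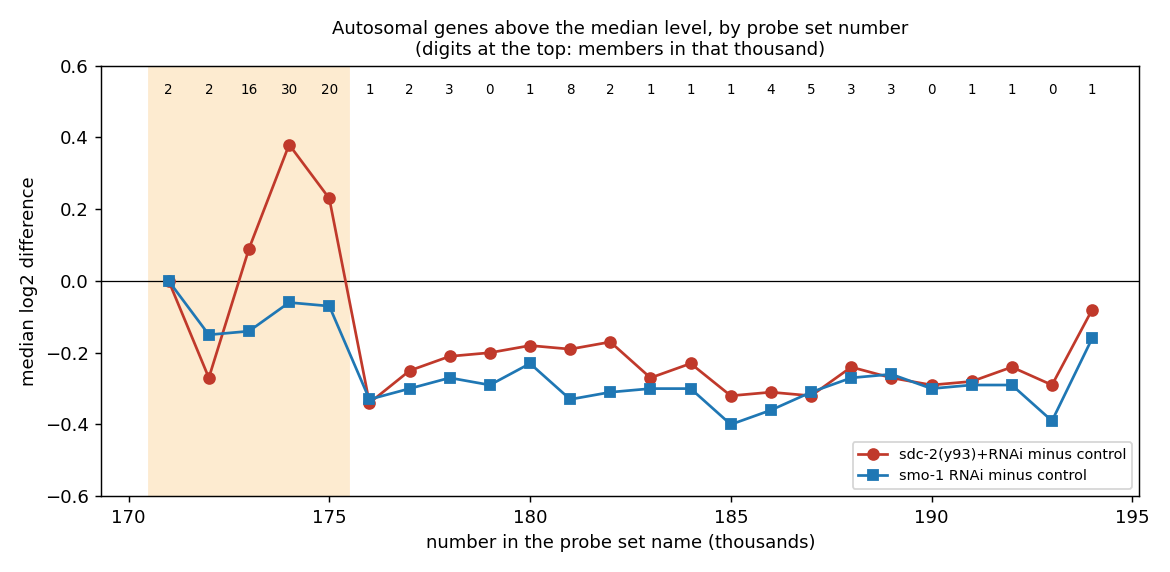
Median log2 difference from control of autosomal genes above the median level against the first 3 digits of the probe set number, for sdc-2(y93)+RNAi (circles) and smo-1 RNAi (squares). Digits at the top count members at each number; the sdc-2(y93)+RNAi medians above 0 lie at 173 to 175, within the shaded low class, and reach 0.38 at 174.

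Applying the rule again to values made in other ways changed the set; the first and second of these ways were chosen after seeing the data. With each array centred within the 2 classes, 162 genes met the rule, of which 60 were members. With high-numbered probe sets only, 55 genes did, of which 44 were members. With all probe sets averaged per gene, 81 did, of which 59 were members. With arrays centred on autosomal genes above the median level, 176 did, of which 55 were members, and the medians of the 114 members became 0.80 and -0.40. Leaving out single arrays, 45 of the 114 met the rule each time, and 69 dropped out at least once.

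Differences in arrays to which the rule was not applied had the same direction. The brightest probe set of each gene was still picked from all 9 arrays, so the left-out arrays were not fully apart from the choice. When 1 replicate number was left out of all groups and genes were chosen from the other 6 arrays, 129, 103 and 114 genes met the rule. In the left-out arrays of numbers 1, 2 and 3 their median difference was 0.38, 0.52 and 0.58 in sdc-2(y93)+RNAi and -0.57, -0.54 and -0.49 in smo-1 RNAi embryos, each against the left-out control array. Both signs were as chosen in 92.2%, 88.3% and 90.4% of these genes, against 15.6%, 15.0% and 16.5% of all autosomal genes. Both differences passed 0.4 in 49 of 129, 43 of 103 and 44 of 114 genes, against 0.82%, 1.39% and 0.807% of all autosomal genes. Among autosomal genes above the median level these shares were 1.55%, 2.72% and 1.49%. With 1 left-out array per group there is no test, and an effect that rests on a probe set recurs on every array.

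Of the 114 members, 80 were placed in groups by known role after their values were seen, and 34 were given no role. The largest groups were transcription and chromatin (22 genes), cell division (18), membranes, lipids and secretion (11) and maternal and germline genes (9). The others were 6 genes of RNA handling and translation, 5 of the apical matrix and cell surface, 5 of ubiquitin ligases and 4 early zygotic genes.

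**Figure D4:**
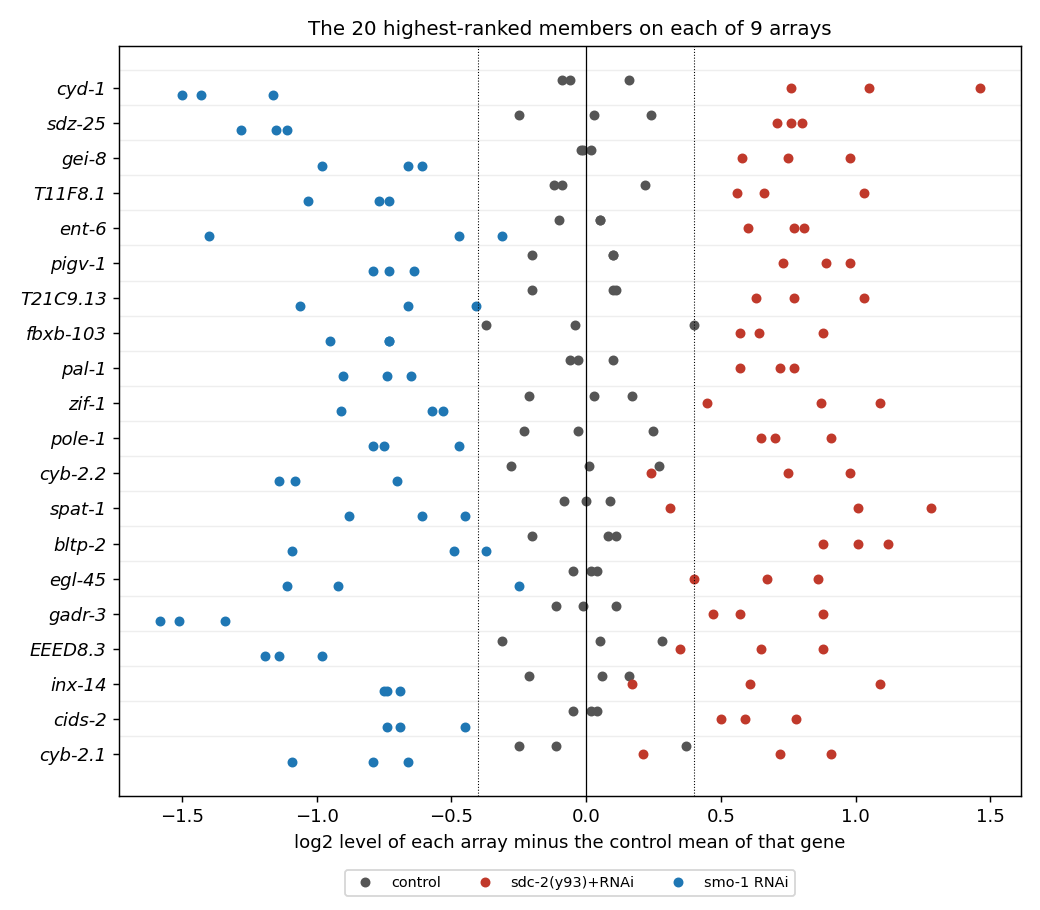
Log2 level of each of the 9 arrays minus the control mean of the same gene, for the 20 members with the highest smaller difference. Grey points are control, red sdc-2(y93)+RNAi and blue smo-1 RNAi arrays, 3 each; dotted lines lie at -0.4 and 0.4, and 1 red point each of cyb-2.2 and cyb-2.1 lies within the control range.

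Among the cell division genes, cyd-1 ranked first of all members. Cyclin D drives entry into the cell cycle from G1. The level of cyd-1 was 9.08, 8.83 and 8.86 in control, 9.97, 10.38 and 9.68 in sdc-2(y93)+RNAi and 7.76, 7.49 and 7.42 in smo-1 RNAi embryos. Groups did not overlap, with differences of 1.08 ± 0.17 and -1.37 ± 0.17 (SE of the limma fit).

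Of the mitotic cyclins, cyb-1, a cyclin B gene, read 11.43, 11.20 and 11.41 in control, 11.95, 12.20 and 12.01 in sdc-2(y93)+RNAi and 10.98, 10.40 and 10.86 in smo-1 RNAi embryos, and its groups did not overlap. In its next-brightest probe set the sdc-2(y93)+RNAi arrays (11.28, 10.84 and 11.08) overlapped control (10.96, 10.73 and 11.25). The differences there were 0.09 and -1.26. The related cyb-2.2 read 9.81, 9.52 and 10.07, then 10.55, 10.04 and 10.78, then 9.10, 8.66 and 8.72. Array 2 of sdc-2(y93)+RNAi (10.04) lay within the control range of cyb-2.2. Its paralog cyb-2.1 differed by 0.61 and -0.85, and both are read by probe sets of a kind that may also detect close relatives, which makes each value uncertain. The cyclin A gene cya-1 differed by 0.87 and -0.46, and by 0.26 and -1.16 in its next-brightest probe set.

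Regulators of mitosis and of centrioles were further members. The gene of Polo kinase, plk-1, differed by 0.45 and -0.70 in its brightest and by 0.34 and -1.59 in its next-brightest probe set. Its activator gene spat-1, the Bora homolog, read 7.05, 6.97 and 7.14 in control, 7.36, 8.06 and 8.33 in sdc-2(y93)+RNAi and 6.17, 6.44 and 6.6 in smo-1 RNAi embryos, without overlap. The next-brightest probe set of spat-1 had the opposite sign in sdc-2(y93)+RNAi embryos, at 6.42, 6.52 and 6.67 against 7.20, 6.95 and 7.36 in control, also without overlap (-0.63, and -0.79 in smo-1 RNAi embryos). The centriole duplication kinase gene zyg-1 differed by 0.93 and -0.50, and ani-1, of the contractile ring protein anillin, by 0.69 and -0.52. Their next-brightest probe sets gave 0.25 and -0.85 for zyg-1 and -0.06 and -0.85 for ani-1. Of the 13 cell division members with several probe sets, 5 were below 0 in sdc-2(y93)+RNAi and all 13 below 0 in smo-1 RNAi embryos in the next-brightest. Over all autosomal genes with several probe sets, 62.2% were at or below 0 and 68.8% below 0.

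Replication and chromosome genes included pole-1, of the catalytic subunit of DNA polymerase epsilon. It read 9.51, 9.31 and 9.79 in control, 10.45, 10.19 and 10.24 in sdc-2(y93)+RNAi and 9.07, 8.75 and 8.79 in smo-1 RNAi embryos, without overlap. The origin licensing genes cdc-6 and orc-2 differed by 0.44 and -0.88, and by 0.42 and -0.46. The E2F genes efl-1 and efl-3, the cohesin loader gene mau-2, the kinase gene vrk-1, lrr-1, of a substrate receptor of the CUL-2 ligase, and the poly(ADP-ribose) polymerase gene parp-2 complete the 18. Of the cell division members, 13 were read by low-numbered probe sets.

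A list of cell cycle and chromosome segregation genes, built from gene symbols, shows more of the pathway. In smo-1 RNAi embryos 66 of its genes were called lower, 6 higher and 40 neither, with a median of -0.50 (all genes, 22.2% called lower and 17.8% higher, median 0.00). In sdc-2(y93)+RNAi embryos 19 were called higher, 20 lower and 73 neither, with a median of -0.04. Over all genes 10.9% were called higher and 15.6% lower (median 0.02), and 6.73% of autosomal genes were called higher. The counts of the list include its 9 members, which the rule fixes. Without them 57 were called lower and 6 higher in smo-1 RNAi embryos, and 11 higher and 20 lower in sdc-2(y93)+RNAi embryos.

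Of the 9 maternal and germline members, 6 met the rule whichever array was left out. By its brightest probe set mex-6 read 10.27, 9.88 and 10.37 in control, 11.22, 11.09 and 11.28 in sdc-2(y93)+RNAi and 9.54, 9.65 and 9.71 in smo-1 RNAi embryos, without overlap. The gene oma-1, needed for oocyte maturation, read 9.05, 8.92 and 9.19, then 9.74, 9.16 and 9.57, then 8.17, 8.09 and 7.80. Array 2 of sdc-2(y93)+RNAi fell within its control range. The Nanos gene nos-2, which acts in primordial germ cells, read 9.36, 9.27 and 9.60, then 10.05, 9.59 and 10.36, then 8.85, 8.00 and 8.51, with the same array in the control range.

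The Caudal homolog pal-1, translated from maternal messenger in posterior cells, read 10.88, 10.72 and 10.75 in control, 11.35, 11.50 and 11.55 in sdc-2(y93)+RNAi and 10.04, 9.88 and 10.13 in smo-1 RNAi embryos, without overlap. In its next-brightest probe set the differences were -0.11 and -1.17. For zif-1, which encodes an adaptor that targets germ plasm proteins for degradation in somatic cells, the differences were 0.81 and -0.67. Gap junction gene inx-14 differed by 0.62 and -0.73, the nuclear envelope gene sun-1 by 1.00 and -0.55, and mes-3, of the Polycomb repressive complex, by 0.72 and -0.46. Next-brightest probe sets gave 0.09 and -0.8 for sun-1 and 0.24 and -1.09 for mes-3. The ninth gene was trcs-1. The list of oocyte and maternal genes holds 35 genes, 3 of them members (mex-6, nos-2 and oma-1). Of the other 32, limma called 11 higher and 0 lower in sdc-2(y93)+RNAi embryos (1 lower at an unadjusted p of 0.05), with a median of 0.26. Of all genes 10.9% were called higher and 15.6% lower there, and 6.73% of autosomal genes were called higher. In smo-1 RNAi embryos 16 of the 32 were called lower and 7 higher, with a median of -0.32, against 22.2% and 17.8% of all genes.

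The early zygotic group holds 4 members. The SKN-1-dependent gene sdz-25 read 8.78, 8.5 and 8.99 in control, 9.46, 9.55 and 9.51 in sdc-2(y93)+RNAi and 7.64, 7.60 and 7.47 in smo-1 RNAi embryos. Groups did not overlap, with differences of 0.75 ± 0.12 and -1.18 ± 0.12. For vet-1 the differences were 0.56 and -1.44, for sdz-28 0.47 and -1.32 and for sdz-29, annotated as a pseudogene, 0.57 and -0.71. Both sdz-28 and sdz-29 are next to each other on chromosome II among the measured genes, the one neighbouring pair of members. The list of early zygotic genes holds 65 genes, of which 7 are members: these 4 and the transcription factor genes die-1, lin-26 and nob-1. Of the other 58, 25 were called lower and 3 higher in smo-1 RNAi embryos (median -0.27), against 22.2% and 17.8% of all genes. In sdc-2(y93)+RNAi embryos 4 were called higher and 6 lower (median 0.01), against 10.9% and 15.6%. Of autosomal genes alone, 6.73% were called higher in sdc-2(y93)+RNAi embryos.

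Transcription factor and chromatin members were read by low-numbered probe sets in 21 of 22 cases. Of the 20 with several probe sets, 13 were below 0 in sdc-2(y93)+RNAi and all 20 below 0 in smo-1 RNAi embryos in the next-brightest, with medians of -0.22 and -1.18. The shares over all autosomal genes with several probe sets were 62.2% (at or below 0) and 68.8%. The epidermal factor gene lin-26 read 11.49, 11.46 and 11.46 in control, between 11.84 and 12.08 in sdc-2(y93)+RNAi and 10.79, 10.44 and 10.99 in smo-1 RNAi embryos. Its next-brightest probe set gave -0.36 and -1.28. The zinc finger gene die-1, of embryonic morphogenesis, differed by 0.58 and -0.63, and by -0.31 and -1.38 in the next-brightest. The NK-2 homolog ceh-22, a factor of pharyngeal muscle, read 9.60, 9.83 and 9.46, then 9.91, 10.47 and 10.01, then 8.49, 7.94 and 8.61. Neither lin-26 nor ceh-22 had overlapping groups in these probe sets, and the next-brightest one of ceh-22 gave -0.20 and -0.87.

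The Pbx homolog ceh-20 differed by 0.51 and -0.70, the posterior Hox gene nob-1 by 0.44 and -0.41, and the GATA factor gene egl-18 by 0.45 and -0.46. In the next-brightest probe sets these differences were -0.49 and -1.29 for ceh-20, -0.38 and -1.03 for nob-1 and -0.74 and -0.93 for egl-18. Nuclear hormone receptor genes were nhr-46 (0.59 and -0.61), nhr-66 (0.44 and -0.46) and nhr-10 (0.42 and -0.42), of 254 on the list. Corepressor gene gei-8, the homolog of NCoR, ranked just after cyd-1 and sdz-25, at 9.48, 9.44 and 9.45 in control, 10.04, 10.44 and 10.21 in sdc-2(y93)+RNAi and 8.80, 8.48 and 8.85 in smo-1 RNAi embryos, but had differences of 0.08 and -1.19 in its next-brightest probe set. The chromodomain helicase genes chd-1 (0.55 and -0.64) and chd-7 (0.50 and -0.53), the SWI/SNF subunit gene let-526 (0.61 and -0.42), the CoREST gene rcor-1 (0.54 and -0.68) and the akirin gene akir-1 (0.64 and -0.47) were members as well. In its next-brightest probe set chd-1 read 7.40, 7.40 and 7.44 in sdc-2(y93)+RNAi against 8.23, 8.33 and 8.22 in control embryos, a difference of -0.85. For chd-7, let-526, rcor-1 and akir-1 the next-brightest gave between -0.13 and 0.08 in sdc-2(y93)+RNAi and between -1.28 and -0.72 in smo-1 RNAi embryos. The genes flh-1, ztf-29, somi-1, zip-8, lsy-22, set-10 and gtf-2F1 complete the group.

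Members of the other roles were fewer. F-box genes, whose proteins are adaptors of ubiquitin ligases, were fbxb-103, fbxa-215, fbxb-37 and fbxb-3, of 433 F-box, MATH and BTB genes on the list. The highest ranked of these, fbxb-103, read 7.41, 7.08 and 7.85 in control, 8.02, 8.09 and 8.33 in sdc-2(y93)+RNAi and 6.72, 6.72 and 6.50 in smo-1 RNAi embryos, and its groups did not overlap. Among genes of the apical matrix noah-1 (0.47 and -0.53), cutl-16 (0.58 and -0.80), cutl-9 (0.45 and -1.02) and mlt-11 (0.47 and -0.41) were members, and noah-1 gave 0.03 and -1.17 in its next-brightest probe set. The translation initiation gene egl-45, of a subunit of eIF3, differed by 0.64 and -0.76 in its brightest and by -0.76 and -0.97 in its next-brightest probe set. Further members of this group were the splicing factor gene rsp-3 (0.64 and -0.45), sym-2, rbm-26, nxf-2 and cids-2 (0.62 and -0.63). Next-brightest probe sets gave -1.12 and -1.57 for rsp-3 and -0.27 and -0.75 for cids-2. All 5 members of the group with several probe sets were below 0 in both comparisons in the next-brightest.

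Secretory and lipid genes were bltp-2, of a bridge-like lipid transfer protein (1.00 and -0.65), pigv-1, of GPI anchor synthesis (0.87 and -0.72), the nucleoside transporter gene ent-6 (0.73 and -0.72), the coat protein genes copb-2 and sec-24.1, kpc-1, epg-4, dhhc-3, sptl-3, imp-2 and the zinc transporter gene zipt-2.4 (0.50 and -0.59). Array 2 of smo-1 RNAi decided sptl-3, which read 8.53, 7.19 and 8.68 in that group against 8.68, 8.47 and 8.48 in control embryos. The same array was by far the lowest for ent-6, at 9.49, 8.56 and 9.65 against 10.01, 10.01 and 9.86 in control embryos. When single arrays were left out, ent-6 met the rule in 8 of 9 cases. Among the genes with no role given here, T11F8.1 (0.75 and -0.85), T21C9.13 (0.81 and -0.71), gadr-3 (0.64 and -1.48) and EEED8.3 (0.63 and -1.11) ranked highest, and F59D6.1 had the lowest smo-1 RNAi difference of all members (0.48 and -1.50).

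Single arrays deviated within a group, and the rule used these same arrays to choose the members. On array 2 of sdc-2(y93)+RNAi 59 members had the highest level of their 3 arrays and 39 the lowest, against 23.7% and 56.3% of autosomal genes above the median level. Of members in low-numbered probe sets 52 of 71 were highest there, and of those in high-numbered ones 28 of 43 were lowest. Most of the autosomal genes compared (5380 of 7166) were read by high-numbered probe sets, unlike the members, so these shares do not compare like classes. Over these autosomal genes the median deviation of this array was 0.10 at 174 and 0.06 at 175. It was between -0.06 and -0.03 at 171 to 173 and between -0.14 and -0.06 at 176 to 194. By role, array 2 was the lowest in 7 of 9 maternal and germline genes and 3 of 4 early zygotic genes, and the highest in 18 of 22 transcription and chromatin genes and all 5 apical matrix and cell surface genes. Role and class overlapped: low-numbered probe sets read 21 of these 22 and all of these 5 genes. They read 4 of the 9 maternal and germline and 1 of the 4 early zygotic genes. The part of role and of class was not tested. On array 2 of control 77 members (67.5%) were the lowest of 3, against 43.6% of autosomal genes above the median level. Across the 114 members, the deviations of both these arrays from their group means had a correlation of 0.59, and over all autosomal genes 0.25; genes are not independent replicates, and this describes the arrays.

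**Figure D5:**
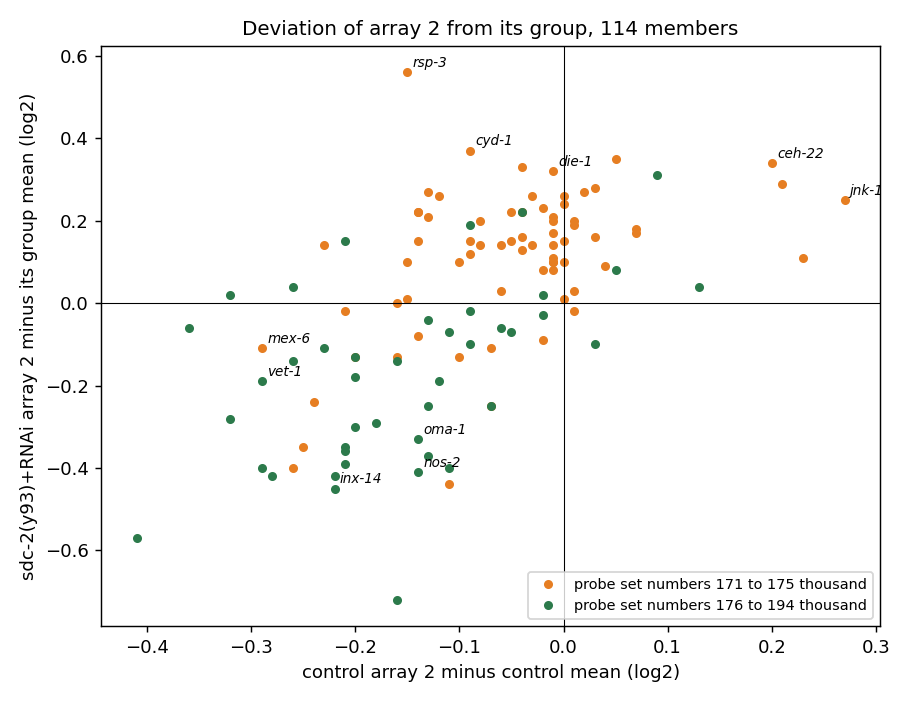
Deviation of array 2 from its group mean, in log2 units, in control (x axis) and sdc-2(y93)+RNAi embryos (y axis), 1 point per member, coloured by probe set number. The germline genes nos-2, oma-1 and inx-14 lie at the lower left, and rsp-3, cyd-1 and ceh-22 are among the highest on the y axis.

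By chromosome, 30 members lay on I, 28 on II, 21 on III, 22 on IV and 13 on V. These were 1.21%, 0.926%, 0.931%, 0.823% and 0.301% of the measured genes there. Chromosome V carries 29.3% of autosomal genes and 11.4% of members. These shares are of all measured genes and were not matched for brightness. Above the median level lay 94.7% of members against 48.6% of autosomal genes. By the same rule 53 of 2360 X-linked genes (2.25%) qualified, against 0.773% of autosomal genes.

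Of the 27 symbol lists, 18 held no member, among them the 1325 chemoreceptor, 220 C-type lectin and 78 sperm genes. Members are 0.773% of autosomal genes, so little is read from a list without one.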

How the data were processed

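Biotin-labelled cRNA of 9 total RNA samples was read on Affymetrix C. elegans arrays. The authors deposited log2 values, for which the submitters' processing notes name RMA and Affymetrix Expression Console, without a version. RMA gives all arrays nearly the same distribution (medians 6.51 to 6.72) and shrinks differences of dim genes. The medians still separated by group, at 6.56 to 6.60 in control, 6.51 to 6.55 in sdc-2(y93)+RNAi and 6.70 to 6.72 in smo-1 RNAi. Of 22625 probe sets, 20766 are listed with 1 gene; 20701 of these matched the RefSeq gene table of assembly WBcel235 by gene identifier and the others by symbol. The table gave symbols and chromosomes. For each of 17118 genes the brightest of its probe sets, by mean over the arrays, was used.

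Groups and replicate numbers came from sample titles. Calls come from limma 3.58.1 in R 4.3.3 (lmFit and eBayes on all 9 arrays, 6 residual degrees of freedom, two-sided, Benjamini-Hochberg adjustment over all genes, threshold 0.05), checked on simulated data. The labels do not state separate cultures for replicates, so calls rest on a spread that may be only technical. The members, lists and tests were chosen with earlier results of these data known, and both comparisons chose the members, so no p-value is given for a member. Named genes were the 20 members with the highest smaller difference, up to 3 members of each of 27 symbol lists ranked likewise, and the 3 genes on either side of the threshold; other members are named to account for the set, and their role groups and the probe set number classes were formed after the values were seen. Alternatives changed the probe set, scaling, threshold, fit and arrays.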

Additional observations from a re-analysis of the deposited data

How the results depend on the processing

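The number of genes meeting the rule was 114. It moved to 232 with arrays centred on all autosomal genes and 176 with centring on those brighter than the median level, to 238 and 20 with thresholds of 0.3 and 0.6, and, in alternatives chosen after seeing the data, to 33 with next-brightest and 55 with high-numbered probe sets. Leaving out arrays or replicate numbers gave 98 to 137. Members called in both comparisons numbered 85, and 38 at an adjusted p of 0.01, 53 with the mean of all probe sets, 56 with the latter centring, and 48 to 85 without single arrays; the lowest values were 48 without control replicate 1 and 56 without control replicate 2. Genes called against control numbered 4535 for sdc-2(y93)+RNAi (2986 at 0.01 and 8421 with the latter centring) and 6833 for smo-1 RNAi. Of these calls 41.0% and 44.5% were higher, and 50.5% and 31.7% after centring on autosomal genes, and 82.4% and 66.6% after the latter centring, which moved the median of all genes to 0.28 and 0.20 and that of the members to 0.80 and -0.40. Left-out medians ranged from 0.38 to 0.58 and from -0.57 to -0.49. Among the scaling, averaging and left-out-array alternatives computed per gene named by rule, 1 difference turned sign: egl-45 in sdc-2(y93)+RNAi embryos, to -0.06 with the mean of its probe sets. Members named only to account for the set were not in this count. Among them chd-1 (0.55 and -0.85) and egl-18 (0.45 and -0.74) had opposite signs in the brightest and next-brightest probe set there. Of the 70 members with several probe sets, 12 next-brightest ones were past -0.4 in sdc-2(y93)+RNAi embryos and 5 past 0.4. In the next-brightest probe set, 10 of the 20 named members that have one were below 0 in sdc-2(y93)+RNAi and 1 (pigv-1) above 0 in smo-1 RNAi embryos. Over all autosomal genes with several probe sets, 62.2% were at or below 0 in sdc-2(y93)+RNAi and 68.8% below 0 in smo-1 RNAi embryos. The causes of these shifts were not tested. With the replicate number as a block, 90 members were called in both comparisons, and 4549 and 6829 genes in the single ones. Same-numbered deviations had correlations from -0.22 to 0.24. With 3 arrays per group these cannot show whether same-numbered samples shared a batch. The array number and signal over background limit precision, and 6 members lay at or below the median level.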
